A study of Mus musculus with 8 samples.

Results

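The genes described here are 45 mouse genes of G2 phase and mitosis, the part of the cell cycle in which a cell commits to division, separates its duplicated chromosomes and splits. They were taken from a named list that runs from the cyclin-dependent kinase switch to cytokinesis, and each gene was read from the probe set annotated to that gene alone, the brightest one where a gene had several. Of the 45, 43 were measured, among 30707 named genes on the arrays. Ccnb1, the mitotic partner of Cdk1, had no named probe set, and the probe set of Foxm1, a transcription factor of G2/M genes, also carried the name of another gene, Tex52, so neither was analysed here.

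RNA came from the colons of 8 C57BL/6 mice that all lacked Rag1 (Rag1-/-) and therefore made no mature T or B cells of their own. The control group was 5 mice injected with regulatory T cells, which were not inflamed. The inflamed group was 3 mice injected with naïve T cells, which expand in such hosts, and they were killed once severe inflammation showed as weight loss and diarrhoea. Per the labels, injection was at 10 weeks of age and death 2 to 4 months later, the stated ages of 4 to 5 months overlap with these times only in part, and 1 array was hybridised per mouse. The protocol of the samples names the distal colon and the design text a strip from cecum to rectum, so the sampled region is uncertain. The title given to the series speaks of p21-activated kinases in colitis, and the comparison asks which transcripts differ between inflamed and control colon.

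Mitosis is started by the kinase Cdk1 bound to cyclins A and B, which the Cdc25 phosphatases switch on. Polo-like and Aurora kinases mature the centrosomes and correct faulty attachments, kinetochores tie chromosomes to microtubules, and the spindle checkpoint holds back the anaphase-promoting complex (APC/C) until every chromosome is attached. In healthy colon, dividing cells lie mostly in the lower crypt, and in the T cell transfer model both crypt cells and infiltrating immune cells can divide. The transcripts of these genes peak late in the cycle, and their promoters commonly share 2 elements, the cell cycle genes homology region (CHR, TTTGAA, or TTCAAA read from the other strand) and the CCAAT box (CCAAT, or ATTGG from the other strand), so the promoters of the members that stood out are shown first.

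RefSeq's promoter windows of assembly GRCm38.p6, which run from 250 bases before to 50 bases after each annotated gene start, held an entry for 38 of the 45 genes. A CHR match was found in 26 of these 38 genes (68.4%), against 46.2% of 78 other mitosis genes and 18.5% of 17492 protein-coding genes. CCAAT matches lay in 71.1% of the 38 genes, in 67.9% of the other mitosis genes and in 42.3% of protein-coding genes. Both elements together were found in 55.3%, 35.9% and 7.4%. The nearest CHR match lay within 50 bases of the start in 24 of the 26 genes. In 16 of the 26 it lay after the start, where the window itself ends at 50 bases, so these met the limit by design. The distance was not compared with that in other genes. Below are the matches of the 5 genes with the largest differences among the members called higher whose window held one, as 30 bases around the CHR for the 3 whose match lies after the start and as the 100 bases before the start for the other two. Each is printed 5′ to 3′ on the gene's strand, and capitals mark every CHR and CCAAT match.
Kif4, chrX:100626072-100626101, plus strand: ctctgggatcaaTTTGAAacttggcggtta
Kif23, chr9:61946780-61946809, minus strand: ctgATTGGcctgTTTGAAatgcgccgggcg
Kif20b, chr19:34922353-34922382, plus strand: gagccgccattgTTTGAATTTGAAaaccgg
Top2a, chr11:99024190-99024289, minus strand: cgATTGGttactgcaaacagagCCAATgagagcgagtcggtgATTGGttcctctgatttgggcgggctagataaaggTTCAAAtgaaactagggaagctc
Kif11, chr19:37376282-37376381, plus strand: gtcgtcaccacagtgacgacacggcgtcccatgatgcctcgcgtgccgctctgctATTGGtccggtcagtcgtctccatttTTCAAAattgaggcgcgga
The CHR of Top2a began 23 bases and that of Kif11 19 bases before the start, while those of Kif23, Kif20b and Kif4 began 3, 8 and 20 bases after it. Of the CHR matches of the list, 1 overlapped a CCAAT match. The Kif20b window carried the 6 letters in tandem, and the Top2a stretch held 3 CCAAT matches upstream of its CHR. Among measured members, 20 of the 26 with a CHR match were called higher in inflamed colon at an adjusted p under 0.05 in limma (8.07% of all named genes were), with a median log2 difference of 0.58, as were 5 of the 11 with an entry but no match (median 0.52), and the 5 printed genes were chosen on their differences. A match describes letters in these windows only.

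**Figure D1:**
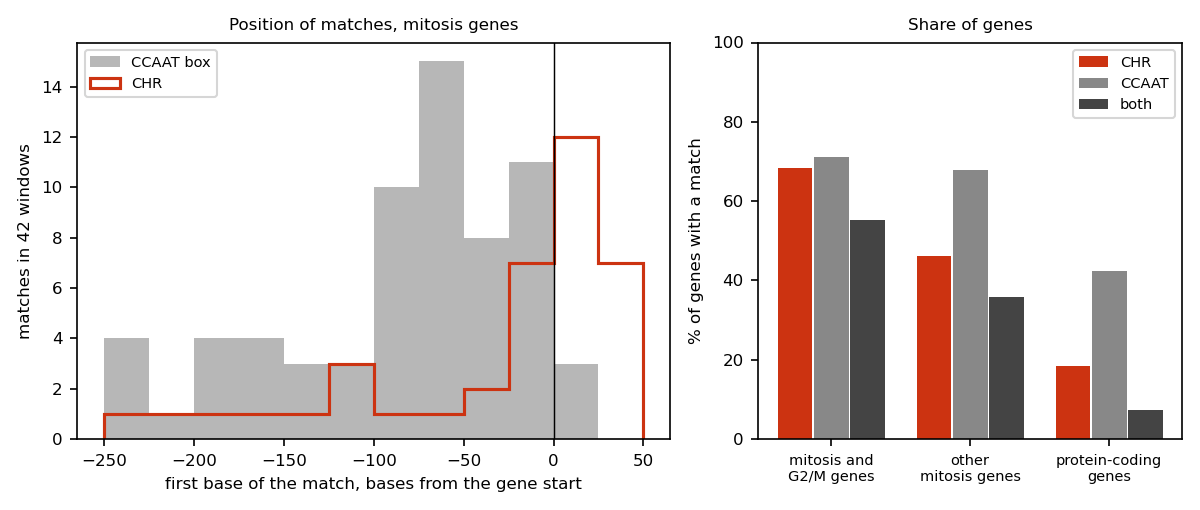
Left, the number of CHR and CCAAT matches in the 42 promoter windows of the mitosis and G2/M genes (y axis) by the distance in bases of the match's first base from the gene start (x axis, 25-base bins, grey CCAAT, red outline CHR). Right, the percentage of genes with a match, where 68.4% of the mitosis and G2/M genes, 46.2% of other mitosis genes and 18.5% of protein-coding genes held a CHR.

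Inflamed colon had higher levels of mitosis transcripts across the whole list. All 43 measured genes had a higher mean in inflamed than in control colon, 30 of them (69.8%) rose at a Benjamini-Hochberg adjusted p under 0.05 (limma, over all 30707 genes), and 0 fell. Over all named genes, 8.07% were called higher, 5.04% lower and 44.2% had a higher mean. Differences were of moderate size, with a median log2 difference of 0.56 (all named genes -0.01) and a range from 0.22 for Cenpk to 0.98 for Cenpe, and a difference above that median was seen for 4.17% of all genes. Here 0 of 43 reached 2-fold, against 1.48% of all genes called higher at that size. For 39 of the 43 genes every inflamed array lay above every control array, as for 12.0% of all genes, for 0 every inflamed array lay below (9.17% of all genes), and the exceptions were Birc5, Cdca8, Ube2c and Nusap1. These exceptions held exact ties. Inflamed and control replicates 2 shared 1 value for Birc5 (6.3773), Cdca8 (6.7042) and Ube2c (8.777). For Nusap1, inflamed replicates 1 and 3 and control replicate 4 did (6.8604), and control replicate 2 lay just above them (6.8616). Exact ties were not limited to these genes. Control replicates 2 and 4 shared 8.9621 for Ccna2, and control replicates 2 and 3 shared 6.9736 for Cdc25b. The origin of the ties was not tested. At an unadjusted p under 0.05, 42 of the 43 and 28.5% of all genes passed. Leaving out inflamed replicate 1 left 15 members called, and leaving out any other array left between 21 and 29.

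**Figure D2:**
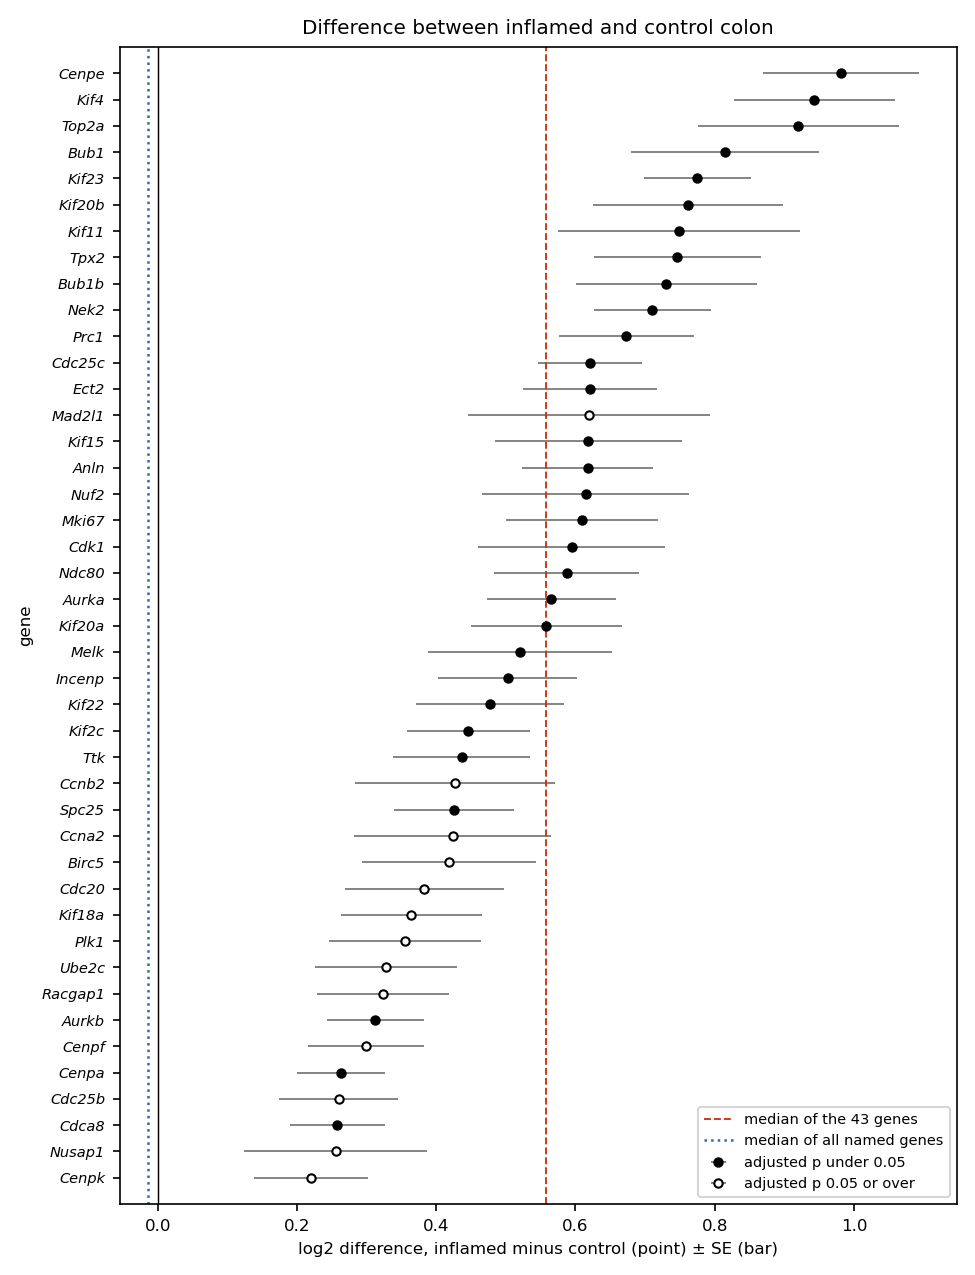
Log2 difference (x axis, inflamed minus control, point, with its limma SE as a bar, n = 5 control and 3 inflamed arrays) for each of the 43 measured genes (y axis), with filled points where the adjusted p was under 0.05. Every point lies right of 0, around a median of 0.56 (dashed), while the median of all named genes lies at -0.01 (dotted).

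Averaged over the 43 genes, the log2 level was 6.88 to 7.26 on the control arrays and 7.60 to 7.66 on the inflamed arrays. This average thus varied little between the 3 inflamed mice and spread more widely over the 5 controls. For single genes the order went either way. The SD of Incenp was 0.22 on inflamed and 0.09 on control arrays, and that of Top2a 0.06 and 0.26. Control replicate 5 was the lowest control for 35 of the 43 genes and control replicate 2 the highest for 30. Relative to the control mean, the mean over the genes was -0.22 on control replicate 5 and 0.16 on control replicate 2, against 0.56, 0.56 and 0.50 on inflamed replicates 1, 2 and 3. Levels of Xist, a transcript of the inactive X chromosome of female cells, were low on controls 1 and 2 and inflamed replicates 1 and 2 and high on the other 4 arrays, and the labels used here give no sex. Within the low arrays (2 inflamed, 2 control) the median difference of the members was 0.46 and within the high ones (1 inflamed, 3 control) 0.56, with all 43 genes higher in both.

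**Figure D3:**
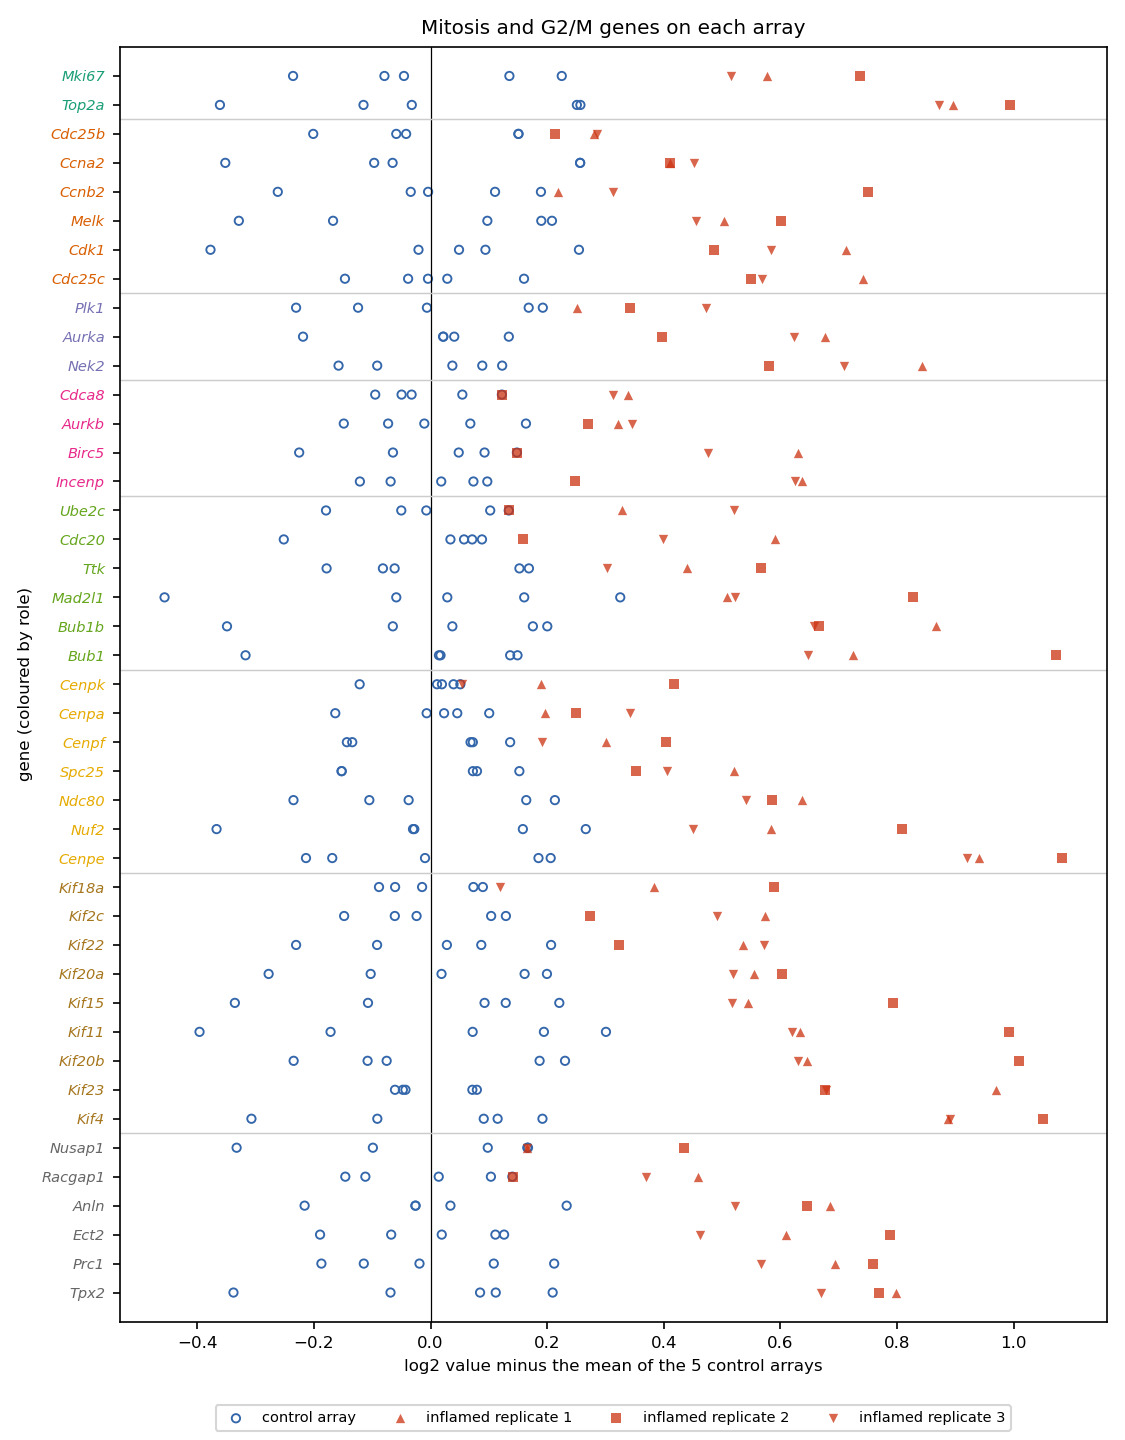
Log2 level of each measured gene minus its mean over the 5 control arrays (x axis), by gene and coloured by role (y axis), with open circles for control arrays and red symbols for inflamed replicates 1, 2 and 3. All inflamed symbols lie right of every circle for 39 of the 43 genes, though barely for Racgap1 and Cenpk. The square of inflamed replicate 2 moves between the left and the right edge of the red symbols from gene to gene.

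Markers of other cell types moved with the groups, where 8.07% of all named genes rose and 5.04% fell. All 10 leukocyte markers and all 8 measured T cell markers rose, the mean log2 level of the first going from between 5.91 and 6.08 on control arrays to between 7.65 and 7.89 on inflamed arrays, and of the second from 5.14 to 5.26 up to 6.21 to 6.90. Cd53, a tetraspanin of leukocytes, rose by 2.74 ± 0.09, Ptprc (CD45) by 2.62 ± 0.14 and the integrin chain Itgb2 by 2.17 ± 0.09. The T cell receptor chains Cd3e and Cd3g rose by 2.07 ± 0.18 and 1.99 ± 0.27, and the co-receptor Cd4 by 1.56 ± 0.18. In control colon the mean of Cd48, Cd2 and Cd28 was under 4.88, the median of all transcript clusters, and in inflamed colon that of Cd28 alone. Of 10 smooth muscle markers, 7 fell and 0 rose (mean level 9.73 to 10.21 on control and 9.29 to 9.39 on inflamed arrays), among them Cnn1 (-0.77 ± 0.13, calponin), Acta2 (-0.73 ± 0.12, smooth muscle actin) and Des (-0.73 ± 0.17, desmin), whose call ended without control replicate 2 or 5 or any 1 inflamed array (adjusted p in limma up to 0.082). The part of these shifts in cell markers in the mitosis result was not tested, and in bulk tissue fewer cells of a type and less RNA per cell cannot be told apart.

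Epithelial markers were well above background in both groups (all 10 over 4.88). Of these, 0 rose and 1 fell, Cdx1 (-0.51 ± 0.10), an intestinal homeobox factor. For this and the next 2 lists, the shares over all named genes were 8.07% higher and 5.04% lower. Leaving out inflamed replicate 1 or 3 ended the call of Cdx1 (limma, adjusted p up to 0.0651). The next largest difference was that of the keratin Krt18, 0.21 ± 0.10 (adjusted p 0.211 in limma). The mean level of the epithelial list was 10.84 to 11.05 on control and 10.97 to 11.04 on inflamed arrays. Control replicate 5, the lowest control for most mitosis genes, was also lowest here. Among 11 measured crypt stem and progenitor markers, 2 rose and 3 fell. Myc, a growth-promoting transcription factor, rose by 0.52 ± 0.10 and Cdca7, a Myc target, by 0.15 ± 0.04 (adjusted p 0.0321 in limma, up to 0.107 with any 1 array other than control replicate 3 left out), and Sox9, a crypt base factor, fell (-0.45 ± 0.08). The stem cell receptor Lgr5 (-0.57 ± 0.15, adjusted p 0.0443 in limma) and Lrig1, a brake on growth factor receptors (-0.30 ± 0.08, adjusted p 0.0474 in limma), also fell, but each of these calls ended without any 1 array other than inflamed replicate 2 (adjusted p up to 0.149 and 0.152). Of 10 markers of differentiated colonocytes 5 fell and 1 rose. The falls were Cyp2c55, a cytochrome P450 (-2.99 ± 0.73), the water channel Aqp8 (-2.15 ± 0.41), the chloride exchanger Slc26a3 (-1.30 ± 0.32), the peptide hormone Guca2a (-1.23 ± 0.19) and carbonic anhydrase Car1 (-0.29 ± 0.05), and the keratin Krt20 rose by 0.58 ± 0.12. With arrays left out, the adjusted p in limma went up to 0.0917 for Cyp2c55 (any 1 array other than inflamed replicates 2 and 3) and to 0.134 for Slc26a3 (any 1 array other than control replicate 1 and inflamed replicate 2), and just over the threshold for Krt20 without control replicate 2 or 5 or inflamed replicate 1 or 2 (up to 0.0538). The difference of Cyp2c55 was -3.84 without inflamed replicate 2 and -1.95 without replicate 3. The list's mean went from between 11.91 and 12.17 to between 10.81 and 11.73. Their part in the mitosis result was not tested either.

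Mki67 and Top2a, the usual transcripts for marking proliferating cells, both rose. Mki67, which coats mitotic chromosomes, had log2 levels of 10.01, 10.32, 10.05, 10.23 and 9.86 on control replicates 1 to 5 and 10.67, 10.83 and 10.61 on inflamed replicates 1 to 3, so every inflamed array was above every control. The difference was 0.61 ± 0.11 (1.53-fold, adjusted p 0.0121 in limma). Top2a, the topoisomerase that untangles sister chromatids, had levels of 8.60, 8.88, 8.51, 8.88 and 8.27 on control replicates 1 to 5 and 9.52, 9.62 and 9.50 on inflamed replicates 1 to 3, again without overlap and with the 3 inflamed arrays close together. Its difference of 0.92 ± 0.14 (1.89-fold, adjusted p 0.00715 in limma) was the third largest of the list after Cenpe and Kif4. Both calls held with each array left out in turn.

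The cyclin and Cdk1 switch moved unevenly, with 3 of 6 measured genes higher and a median difference of 0.47. Cdc25c, a phosphatase that activates Cdk1, was at 5.36, 5.50, 5.54, 5.67 and 5.47 on control replicates 1 to 5 and 6.25, 6.06 and 6.08 on inflamed replicates 1 to 3. The inflamed values stood well clear of the controls, with a difference of 0.62 ± 0.07 (adjusted p 0.00261 in limma). Cdk1 itself rose by 0.59 ± 0.13 (adjusted p 0.0289) and Melk, a kinase of dividing cells, by 0.52 ± 0.13 (adjusted p 0.0429) in the same limma fit. Both measured cyclins missed the threshold, Ccna2 with a difference of 0.42 ± 0.14 (adjusted p 0.0971) and Ccnb2 of 0.43 ± 0.14 (adjusted p 0.0992 in limma). Cdc25b, a phosphatase that acts earlier at the centrosome, had levels of 6.78, 6.97, 6.97, 6.76 and 6.62 on control replicates 1 to 5 and 7.10, 7.04 and 7.11 on inflamed replicates 1 to 3. Its groups did not overlap, yet the gap between the nearest arrays was small and the difference of 0.26 ± 0.09 did not pass (adjusted p 0.0918 in limma). The call of Cdc25c held with each array left out, while that of Cdk1 ended without control replicate 1, 3 or 4 or inflamed replicate 1 or 3 (adjusted p up to 0.105) and that of Melk without control replicate 1, 3 or 4 or any inflamed replicate (adjusted p up to 0.116).

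Of the 3 kinases of the centrosome and of mitotic entry, 2 rose. Nek2, which frees the paired centrosomes from each other, had levels of 7.12, 7.21, 6.99, 7.17 and 6.93 on control replicates 1 to 5 and 7.93, 7.67 and 7.79 on inflamed replicates 1 to 3. No inflamed array came near the controls, and the difference was 0.71 ± 0.08 (adjusted p 0.00242 in limma). Aurka, which matures centrosomes and activates Plk1, rose by 0.57 ± 0.09 (adjusted p 0.00844 in limma). Plk1, a kinase that promotes entry and spindle assembly, was at 8.18, 8.38, 7.96, 8.36 and 8.06 on control replicates 1 to 5 and 8.44, 8.53 and 8.66 on inflamed replicates 1 to 3. All inflamed values were above the controls, but 2 controls lay close to the lowest of them and the difference of 0.36 ± 0.11 did not pass (adjusted p 0.0766 in limma). The calls of Nek2 and Aurka held with each array left out.

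Aurkb, Incenp, Birc5 and Cdca8 encode the chromosomal passenger complex, which corrects kinetochore attachments and later directs cytokinesis, and 3 of the 4 rose, with the lowest median of any role (0.37). Incenp, its scaffold, had levels of 7.08, 7.29, 7.27, 7.22 and 7.13 on control replicates 1 to 5 and 7.83, 7.44 and 7.82 on inflamed replicates 1 to 3. Inflamed replicate 2 lay between the controls and the other inflamed arrays, and the difference was 0.50 ± 0.10 (adjusted p 0.0182 in limma). Aurkb, the kinase subunit, rose by 0.31 ± 0.07 (adjusted p 0.0275 in limma). Cdca8 (borealin), which docks the complex at centromeres, was at 6.49, 6.70, 6.64, 6.53 and 6.55 on control replicates 1 to 5 and 6.92, 6.70 and 6.89 on inflamed replicates 1 to 3. Inflamed replicate 2 was level with the highest control, and the call was marginal (0.26 ± 0.07, adjusted p 0.048 in limma). Birc5 (survivin) had a difference of 0.42 ± 0.12 and did not pass (adjusted p 0.0704 in limma). On inflamed replicate 2 all 4 subunits were lower than on both other inflamed arrays, and without it Birc5 passed (adjusted p 0.0221 in limma). Without inflamed replicate 1 or 3 the calls of Incenp (adjusted p up to 0.0692), Aurkb and Cdca8 ended. Aurkb also lost its call without control replicate 3 or 4 (up to 0.0879) and Cdca8 without control replicate 1, 3, 4 or 5 (up to 0.156).

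In the spindle checkpoint and its target the APC/C, 3 of 6 genes rose, and they were the 3 checkpoint kinases or kinase-like members. Bub1, a kinase that recruits checkpoint proteins to kinetochores, had levels of 6.02, 6.15, 6.02, 6.14 and 5.69 on control replicates 1 to 5 and 6.73, 7.08 and 6.65 on inflamed replicates 1 to 3. Inflamed replicate 2 was the highest array and control replicate 5 stood below the other controls, and the difference was 0.81 ± 0.13 (1.76-fold, adjusted p 0.00895 in limma). Bub1b (BubR1), part of the inhibitor of the APC/C, rose by 0.73 ± 0.13 (adjusted p 0.0117) and Ttk (Mps1), the kinase that starts the signal, by 0.44 ± 0.10 (adjusted p 0.0286, limma). Mad2l1, which binds Cdc20 to form the inhibitor, differed by 0.62 ± 0.17 with a wide error and did not pass (adjusted p 0.058 in limma). The APC/C activator Cdc20 (0.38 ± 0.11, adjusted p 0.0706) and its ubiquitin-conjugating enzyme Ube2c (0.33 ± 0.10, adjusted p 0.0799, limma) did not pass either. Ube2c was at 8.64, 8.78, 8.75, 8.59 and 8.46 on control replicates 1 to 5 and 8.97, 8.78 and 9.16 on inflamed replicates 1 to 3. Here inflamed replicate 2 was no higher than the highest control, whereas the other two inflamed arrays were above all controls. Without inflamed replicate 2 both Cdc20 (adjusted p 0.0314) and Ube2c (0.0379) passed in limma, and Mad2l1 did so without control replicate 2 (0.0496). Bub1b lost its call without inflamed replicate 1 (adjusted p 0.0501) and Ttk without control replicate 1, 3 or 5 or inflamed replicate 1 or 2 (up to 0.0882).

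The centromere and kinetochore group, with 5 of 7 genes higher and a median of 0.43, held both ends of the list. Cenpe, a kinesin that carries chromosomes along microtubules to the spindle equator, had levels of 7.34, 7.56, 7.18, 7.54 and 7.14 on control replicates 1 to 5 and 8.29, 8.43 and 8.27 on inflamed replicates 1 to 3. The inflamed arrays lay close together and far above the controls, with a difference of 0.98 ± 0.11 (1.98-fold, adjusted p 0.00211 in limma). Of the Ndc80 complex, the kinetochore's microtubule-binding rod, the 3 subunits on this list rose, Ndc80 by 0.59 ± 0.10 (adjusted p 0.0117), Nuf2 by 0.61 ± 0.15 (adjusted p 0.0361) and Spc25 by 0.43 ± 0.09 (adjusted p 0.019) in limma. A further subunit, Spc24, was counted among the other mitosis genes, and its value is not given here. Cenpa, the histone variant that marks centromeres, rose by 0.26 ± 0.06 (adjusted p 0.0362 in limma). Cenpf, a large outer kinetochore protein, did not pass (0.30 ± 0.08, adjusted p 0.0568 in limma). Cenpk, of the inner kinetochore network, was at 5.35, 5.32, 5.31, 5.34 and 5.17 on control replicates 1 to 5 and 5.49, 5.71 and 5.35 on inflamed replicates 1 to 3. Inflamed replicate 3 was barely above the highest control, and the difference of 0.22 ± 0.08 did not pass (adjusted p 0.127 in limma). The calls of Cenpe and Ndc80 held with each array left out. That of Spc25 ended without inflamed replicate 1 (adjusted p 0.0735), and those of Nuf2 and Cenpa ended without control replicate 1 or 4 or any inflamed replicate, and also without control replicate 3 for Nuf2 and 2 for Cenpa (adjusted p up to 0.0983 and 0.0998).

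Kinesin motors were the role with the highest share of calls after the proliferation markers, 8 of 9, with a median of 0.62. Kif4, which binds chromosome arms and the anaphase midzone, had levels of 6.90, 6.98, 6.70, 6.88 and 6.48 on control replicates 1 to 5 and 7.67, 7.84 and 7.68 on inflamed replicates 1 to 3. All 3 inflamed arrays were far above the controls, with a difference of 0.94 ± 0.12 (1.92-fold, adjusted p 0.00276 in limma). Kif23, the motor of the centralspindlin complex in cytokinesis, rose by 0.77 ± 0.08 and had the lowest adjusted p of the list (0.00131 in limma). Kif20b and Kif20a, both needed for cytokinesis, rose by 0.76 ± 0.14 and 0.56 ± 0.11. Kif11 (Eg5), which pushes the spindle poles apart, rose by 0.75 ± 0.17 (adjusted p 0.0314 in limma), and Kif15, which can share this work, by 0.62 ± 0.13. Kif22, which pushes chromosome arms away from the poles, rose by 0.48 ± 0.11 and Kif2c (MCAK), which takes microtubules apart at centromeres, by 0.45 ± 0.09. The exception was Kif18a, a motor that damps chromosome movements, at 5.68, 5.76, 5.63, 5.78 and 5.60 on control replicates 1 to 5 and 6.07, 6.28 and 5.81 on inflamed replicates 1 to 3. Inflamed replicate 3 lay just above the controls and replicate 2 well above, and the difference of 0.36 ± 0.10 did not pass (adjusted p 0.057 in limma). Without inflamed replicate 3 it passed (0.013). The calls of Kif4, Kif23 and Kif20b held with each array left out, and those of the other 5 ended without inflamed replicate 1 (adjusted p at most 0.0588 for Kif20a, 0.0655 for Kif2c, 0.0694 for Kif15, 0.0851 for Kif11 and 0.0946 for Kif22 over all arrays left out). Further arrays ended the call of Kif2c (inflamed replicate 3), Kif15 (control replicate 3 and inflamed replicate 2), Kif22 (control replicates 1, 2 and 3 and inflamed replicate 3) and Kif11 (control replicates 1, 3 and 4 and inflamed replicates 2 and 3).

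Among 6 genes of spindle assembly and cytokinesis 4 rose, with a median of 0.62. Tpx2, which activates Aurka on spindle microtubules, had levels of 7.74, 7.84, 7.56, 7.71 and 7.29 on control replicates 1 to 5 and 8.43, 8.40 and 8.30 on inflamed replicates 1 to 3. There was no overlap and the difference was 0.75 ± 0.12 (adjusted p 0.00782 in limma). Prc1, which bundles the microtubules of the midzone, rose by 0.67 ± 0.10 (adjusted p 0.00521 in limma). Anln, which organises the contractile ring, and Ect2, the exchange factor that activates RhoA there, rose by 0.62 ± 0.09 and 0.62 ± 0.10 (adjusted p 0.00658 and 0.0069 in limma). Racgap1, the partner of Kif23 in centralspindlin and an anchor for Ect2, did not pass (0.32 ± 0.09, adjusted p 0.067 in limma) but did without inflamed replicate 2 (0.0311). On that array its level was 6.8297, against 6.8294 on control replicate 2. Nusap1, which stabilises spindle microtubules, was at 6.79, 6.86, 6.60, 6.86 and 6.36 on control replicates 1 to 5 and 6.86, 7.13 and 6.86 on inflamed replicates 1 to 3. Inflamed replicates 1 and 3 were level with the highest controls, and the difference of 0.26 ± 0.13 had the highest adjusted p of the list (0.251 in limma). The calls of Tpx2, Prc1, Anln and Ect2 held with each array left out.

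Inflamed replicate 2 differed from the other inflamed arrays gene by gene, while its average over the 43 genes (7.66) was level with that of replicate 1 (7.66). Over all named genes its Pearson correlation with inflamed replicates 1 and 3 was 0.988 and 0.989, against 0.995 between replicates 1 and 3 and 0.995 to 0.998 between controls, a description over genes of arrays that were normalised together. For the 43 mitosis genes it was higher than both other inflamed arrays in 20, lower than both in 17 and between them in 6, while over all named genes it was higher than both in 31.9% and lower than both in 43.8%. The gap to the mean of the other two ran from -0.41 (Birc5) to 0.48 (Ccnb2), with 11 genes more than 0.2 above and 9 more than 0.2 below, while the SD of the same gap over all named genes was 0.32. Kinesin motors were above both in 6 of 9 and below both in 3, and kinetochore genes were above both in 4 of 7 and below both in 1. All 4 passenger complex genes and 2 of 3 entry kinases were below both. Of the 6 cyclin switch genes 4 were below both and 2 above both. Ccna2 was barely below, at 9.1154 against 9.1163 on inflamed replicate 1. The same gap was not taken for inflamed replicates 1 and 3, and with a single mouse this pattern has no replicate check.

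**Figure D4:**
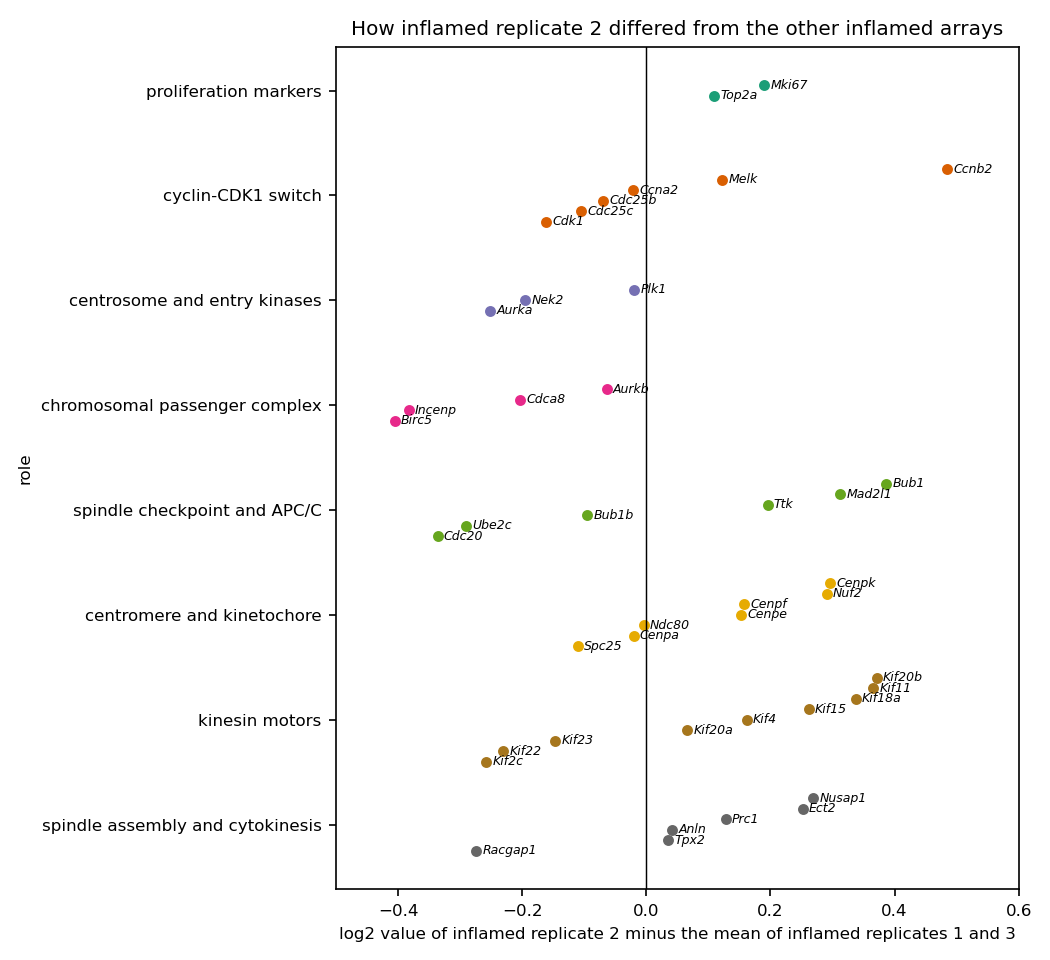
Log2 level on inflamed replicate 2 minus the mean of inflamed replicates 1 and 3 (x axis), each point 1 gene, by role (y axis). Passenger complex genes all lie left of 0, down to -0.41 for Birc5, and Ccnb2 lies farthest right at 0.48.

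The rest of the mitotic machinery rose in part. Of 92 other measured mitosis genes, 37 (40.2%) rose, 0 fell and 55 did not pass, with a median difference of 0.29, and the share of calls was not tested against that of the 43 genes. Over all named genes 8.07% rose and 5.04% fell. The mean was higher in inflamed colon for 86 of the 92, and for 44.2% of all named genes. The other 6 of the 92, none of which passed, were Pttg1 (securin, -0.35 ± 0.11, adjusted p 0.0779 in limma), the Cdk1-inhibiting kinases Wee1 (-0.31 ± 0.11, adjusted p 0.107) and Pkmyt1 (-0.13 ± 0.07), the APC/C activator Fzr1 (-0.05 ± 0.07), the Cenpa chaperone Hjurp (-0.03 ± 0.05) and the kinetochore subunit Pmf1 (-0.03 ± 0.09). For Pttg1 and Wee1 every inflamed array lay below every control, and Pttg1 passed without inflamed replicate 2 (-0.46, adjusted p 0.0282 in limma). By function, 13 of 26 other centromere and kinetochore genes rose, 12 of 26 spindle and cytokinesis genes, 7 of 18 condensin and cohesin genes, 4 of 10 Cdk1 regulators and 1 of 12 checkpoint and APC/C genes. Cep55, which recruits the abscission machinery, rose by 1.17 ± 0.10 (2.25-fold, adjusted p 0.000647 in limma), Tacc3, which stabilises spindle fibres, by 0.97 ± 0.10 and Stil, needed for centriole duplication, by 0.91 ± 0.17. Smc2, a condensin core subunit, rose by 0.84 ± 0.15, and the cohesin protectors Sgo1 and Sgo2a by 0.67 ± 0.09 and 0.66 ± 0.11. Inner kinetochore subunits Cenpq and Cenpi rose by 0.71 ± 0.12 and 0.65 ± 0.08, and Knl1, the checkpoint platform, by 0.60 ± 0.13, a call that ended without control replicate 3 or inflamed replicate 1 or 2 (adjusted p in limma up to 0.07). The Cdk1-binding subunits Cks1b and Cks2 rose by 0.52 ± 0.08 and 0.42 ± 0.08, the mitotic kinase Pbk by 0.49 ± 0.13, and Bora, the Aurora A cofactor, by 0.26 ± 0.07. The call of Cks2 ended without inflamed replicate 2 or 3 (adjusted p in limma up to 0.0578) and that of Pbk without control replicate 1, 3 or 4 or any inflamed replicate (up to 0.135), and that of Bora without control replicate 3, 4 or 5 or any inflamed replicate (up to 0.135).

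Among the 12 other checkpoint and APC/C genes the share called higher was 8.33%, near the 8.07% of all named genes. Ube2s, which extends ubiquitin chains on APC/C substrates, was the 1 called gene (0.60 ± 0.14, adjusted p 0.0364 in limma), its groups overlapped, and the call ended without any 1 array other than control replicate 3 or inflamed replicate 2 (adjusted p up to 0.127). The next largest difference was that of the APC/C subunit Cdc27, 0.29 ± 0.11, which did not pass (adjusted p 0.129 in limma) and was 0.13 without inflamed replicate 2. The median of these 12 genes was 0.17.

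Genes of DNA replication, the phase before, also rose in part. Of 27 measured S phase genes 12 (44.4%) rose and 0 fell, with a median of 0.34, against 8.07% higher and 5.04% lower over all named genes. Their mean level went from between 6.49 and 6.84 on control arrays to between 7.09 and 7.14 on inflamed arrays. Rrm2 and Rrm1, the subunits of ribonucleotide reductase, rose by 1.29 ± 0.17 (2.45-fold) and 0.97 ± 0.14. Mcm3, of the replicative helicase, rose by 0.83 ± 0.19, a call that ended without control replicate 3 or 4 or any inflamed replicate (adjusted p in limma up to 0.0914).

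Calls among regulators of the cycle went in both directions, and the falls were few. Of 15 measured E2F, MYB and DREAM factors, which control G1/S and G2/M transcription, 6 rose (40.0%) and 1 fell, with a median of 0.19. Of all named genes 8.07% rose and 5.04% fell. E2f2 rose by 0.77 ± 0.11, the E2F partner Tfdp1 by 0.60 ± 0.05 (adjusted p 0.000993 in limma) and Lin9 by 0.36 ± 0.07, while Lin37 fell (-0.32 ± 0.05). Lin9 and Lin37 are both subunits of the MuvB core that binds CHR elements. Among 14 Cdk inhibitors and p53 targets that restrain the cycle, 1 rose (7.14%, near the 8.07% of all named genes), 2 fell and the median was -0.04. Trp53inp1, a p53 target, fell (-0.88 ± 0.17), as did the Cdk4 and Cdk6 inhibitor Cdkn2b (-0.58 ± 0.14), while Btg1, an antiproliferative factor, rose by 0.16 ± 0.03. The call of Trp53inp1 ended without inflamed replicate 1 (adjusted p 0.0578 in limma) and that of Cdkn2b without any 1 array other than control replicate 4 or inflamed replicate 3 (up to 0.119).

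**Figure D5:**
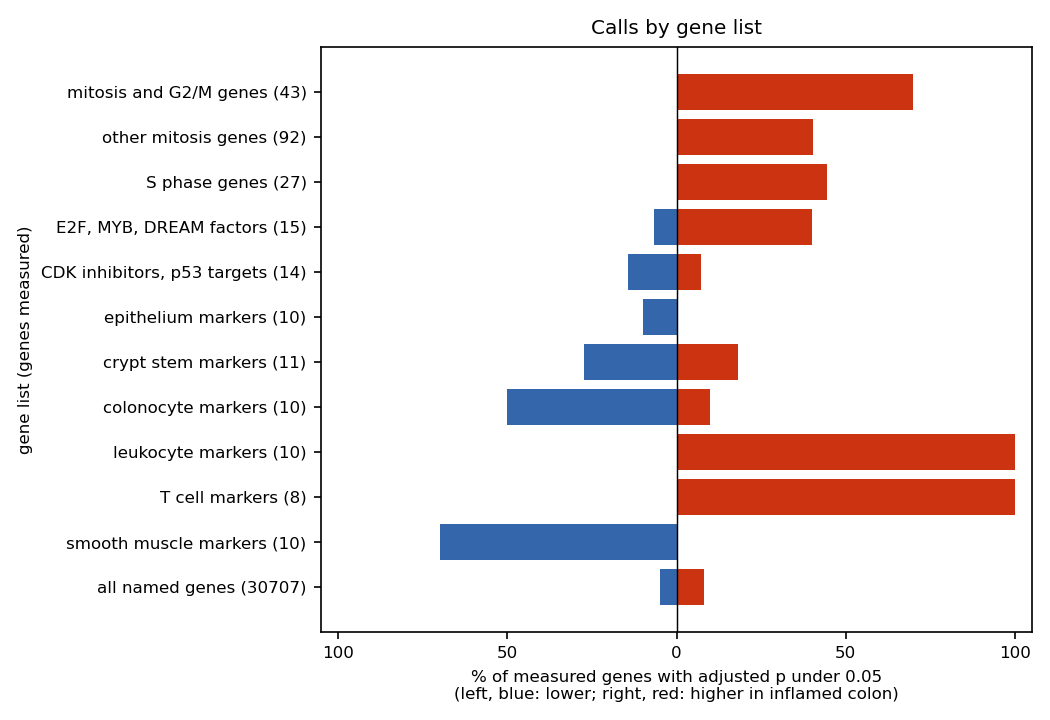
Percentage of the measured genes of each list (y axis, number measured in brackets) that were called higher (red, right) or lower (blue, left) in inflamed colon at an adjusted p under 0.05 in limma (x axis). The mitosis and G2/M genes reach 69.8% higher with none lower, against 40.2% of the other mitosis genes and 8.07% of all named genes.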

How the data were processed

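The deposited table gives log2 intensities per probe set of 8 whole-transcript Affymetrix arrays, which the authors made with Affymetrix Expression Console and RMA, per the submitters' processing notes. Software versions, settings and the genome build: not given in the sources used here. RMA compresses low signals, so folds of dim genes are understated, and with no counts in the files the number of arrays limits the precision. Array medians lay between 4.81 and 4.91. Among 32750 annotated probe sets, 30604 carried a single symbol and 659 carried synonyms of the same gene, and the 1487 that named different genes were not used. The 31263 named probe sets covered 30707 genes (2085 symbols updated through RefSeq), and the brightest was used for the 441 genes with several. The inflamed and control groups were compared by limma 3.58.1 (R 4.3.3), with a plain eBayes fit of 2 groups. The same fit was also run on simulated data, and the outcome is not given here. Values after ± are limma standard errors. "Rose" and "fell" mean an adjusted p under 0.05 over all named genes. The replicates are biological per the labels.

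Members and lists were chosen with earlier results of these data known. Every member may be named. Values on every array are given for Mki67, Top2a and, per role, the members with the highest and lowest difference. Other lists give at most 3 called genes, by size of difference, or their top 2 where fewer than 2 were called. Lin37, Lrig1, Guca2a, Car1, Cdca7, Krt20, Bora, Pttg1, Wee1, Pkmyt1, Fzr1, Hjurp and Pmf1 were named after their values were seen. Genes not measured in the lists are not analysed here. Alternatives covered scaling, a floor and a filter on dim genes, probe set averaging, variance model, array weights, blocks, and each array left out.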

Additional observations from a re-analysis of the deposited data

Results flagged for a closer look

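Control replicate 5 stood apart from the other controls for 3 of the 43 measured mitosis genes by Dixon's test (95% critical ratio 0.71 for 5 samples), and chance flags about 1 in 20 groups. For Bub1 its level was 5.69 against 6.02 to 6.15 on the other controls, a gap of 0.711 of the group's range. For Cdc20 it was 6.49 against 6.78 to 6.83, a gap of 0.841 of the range. For Cenpk it was 5.17 against 5.31 to 5.35, a gap of 0.768 of the range. Without this array the call of Bub1 held, and Cdc20 and Cenpk did not pass with or without it.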

How the results depend on the processing

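All 43 measured members kept a positive difference under every alternative, and their median stayed between 0.49 and 0.60 with each array left out. Against 30 in the main result, members called higher were 34 with arrays centred on their medians, 31 with quantile normalization, 22 with a floor at 4.88, 37 with dim genes left out, 29 with an intensity trend and robust variances, 34 with array weights, 24 with the Xist pattern as a block and 15 to 29 with each array left out. The sample titles give replicate numbers but name no pairing of mice. After group means were removed, same-numbered arrays correlated at -0.285, -0.053 and 0.069, and differently numbered ones at -0.217 to 0.346. So few pairs cannot decide whether the numbers pair the mice. Only numbers 1 to 3 occur in both groups. With the replicate number as a block, 0 members (35 at an unadjusted p under 0.05, lowest adjusted p 0.0693 in limma), 0 other mitosis genes, and 0 genes higher and 0 lower over all genes passed. Of the 15 called members that lost their call without some array, all 15 lost it without inflamed replicate 1. Other mitosis genes called higher ranged from 24 to 37 and called lower from 0 to 1 with arrays left out. The 1 gene called lower, also with dim genes left out and with array weights (1 each), was Pttg1 (securin), at -0.35, -0.42 and, without inflamed replicate 2, -0.46. Over all genes, 1663 to 2618 were called higher and 848 to 1958 lower with arrays left out, and genes called lower were 1004 with the floor and 2356 with array weights against 1547. Signal near background limits the dimmest members, and 3 inflamed mice limit every call.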
